A study of Mus musculus with 2 samples.

Results

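Endothelial cells rich in ribosomal protein transcripts were examined among cells sorted as endothelium and astrocytes from the whole brains of adult mice. A cell barcode was taken as endothelial when Cldn5, Flt1, Abcb1a, Slco1a4, Cdh5 and Pecam1 together gave at least 0.5% of its unique molecular identifiers (UMIs, each standing for 1 captured transcript). Such a barcode also had at least 1000 UMIs and 500 genes, at most 15% mitochondrial UMIs, under 2% of UMIs from the choroid plexus transcript Ttr and under 5% from haemoglobin. Barcodes of this gate in which ribosomal protein genes gave at least 1.5% of UMIs were the members, which were thus chosen by this measured share, and are called rich. Those below 1.5% are called low and served for comparison. There were 118 rich and 711 low barcodes among 2843 barcodes that passed the limits on depth and mitochondrial share and 9301 in the files.

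The study has 1 library from IL34LacZ/+ mice, the wild type of the series' design, and 1 from IL34LacZ/LacZ mice, its knockout. Mice of both genotypes thus carry a LacZ allele of Il34, the gene of the Csf1r ligand interleukin-34. The sources used here do not give how many mice each library pools, their exact age or the markers used for sorting. With 1 library per genotype no test across mice was possible, cells are not replicates, and every interval below is a 95% interval for counting error only. Because the ribosomal protein share chose the members, differences between rich and low barcodes describe them and were not tested.

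Il34 itself gave 166 UMIs (10.2 CPM, the UMIs of a gene per 1000000 UMIs) in 1668 barcodes of the library labelled IL34LacZ/+ and 263 UMIs (18.6 CPM) in 1175 barcodes of the library labelled IL34LacZ/LacZ. Tags of a 3-prime library that lie outside the part of the gene changed by LacZ check nothing, and the sources used here do not give where LacZ was inserted. Since Il34 tags were more frequent under the knockout label, the libraries are named by their labels throughout and every direction between them rests on those labels. Rich barcodes held 0 Il34 UMIs in either library, where 3 counts would be 5.82 and 20.1 CPM, and low barcodes held 3 and 2 UMIs. Barcodes with pericyte markers held Il34 at 375 and 512 CPM. Below, paired values are given for the library labelled IL34LacZ/+ and then for the library labelled IL34LacZ/LacZ.

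Ribosomal proteins assemble with ribosomal RNA into the large and small subunits that translate messenger RNA. Their messages are short, stable and abundant, and in mammals many begin with a run of pyrimidines (C and T in the gene) at the start of the transcript, the 5-prime terminal oligopyrimidine tract, through which their translation responds to growth signals. Brain capillary endothelium forms the blood-brain barrier, with tight junctions sealed by claudin-5 and transporters that carry glucose, amino acids, lactate and thyroid hormone between blood and brain.

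Rich barcodes made up 91 of 529 endothelial barcodes (17.2%, Clopper-Pearson interval 14.1 to 20.7) and 27 of 300 (9%, 6.01 to 12.8). The share was 8.20 percentage points lower in the library labelled IL34LacZ/LacZ (Newcombe interval of the difference −12.8 to −3.27). The ribosomal protein share had values close to the limit on both sides and a long upper tail. Whether it holds separate populations was not tested. Its median was 2.37% and 1.87% in rich barcodes against 0.544% and 0.457% in low barcodes, and it reached 12.8% and 8.54%. The nearest rich barcodes lay at 1.503% and 1.523% and the nearest low barcodes at 1.496% and 1.498%. Only 29 and 5 members reached 3%, and 10 and 3 reached 5%.

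**Figure D1:**
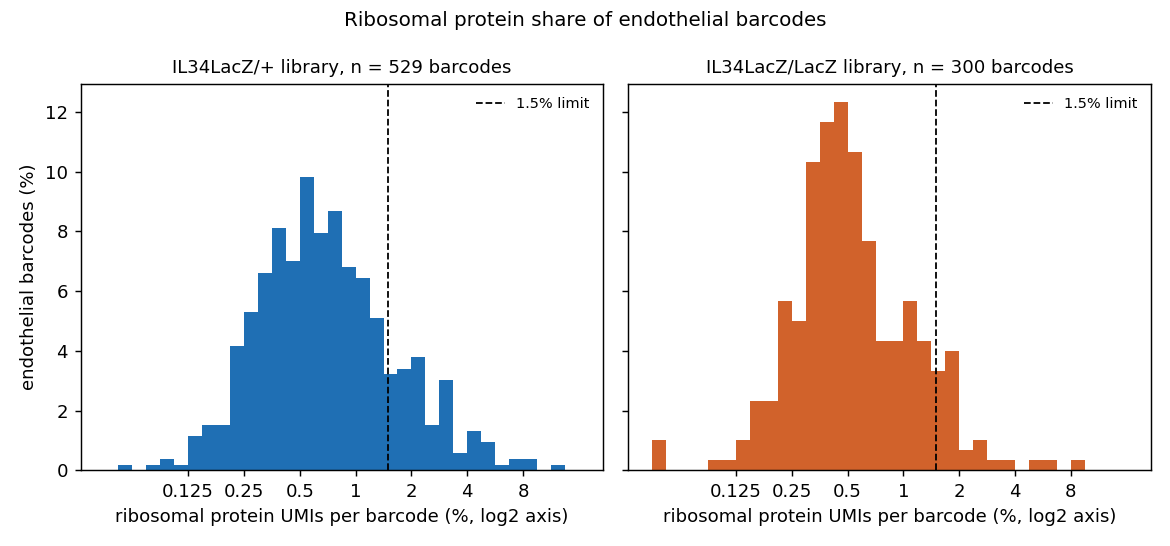
Ribosomal protein UMIs as a percent of all UMIs of a barcode (log2 axis) against the percent of endothelial barcodes in each bin, for each library, with the 1.5% limit dashed. The members are the barcodes at or past the limit, 91 of 529 on the left and 27 of 300 on the right.

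Transcripts of brain endothelium were found in rich barcodes, 6 of them by the rule of the gate. All 20 genes of the endothelial list had UMIs in them, and their summed level was 38574 and 34102 CPM against 33873 and 31628 CPM in low barcodes. Flt1, a VEGF receptor, was detected in 91 of 91 and 27 of 27 rich barcodes and Cldn5, the sealing claudin, in 87 and 25, both genes of the gate. Outside the gate genes, Itm2a, a membrane protein of endothelium, stood at 2606 and 1742 CPM against 756 and 681 CPM. Rich barcodes were somewhat deeper, with a median of 5110 and 5318 UMIs against 4190 and 4825 in low barcodes. Detection before thinning is thus compared at unlike depth. UMI totals were 515293 and 149258 against 2282244 and 1523861. Thinned to 1000 UMIs, a rich barcode held a median of 728 and 696 genes against 698 and 699. Mitochondrial UMIs were somewhat higher, with medians of 2.33% and 3.56% against 2.03% and 2.63%.

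Markers of other cell types were present in rich and low barcodes, and some lists differed between them. Oligodendrocyte genes summed to 736 and 616 CPM against 533 and 453 CPM, astrocyte genes to 375 and 322 CPM against 542 and 184 CPM, and neuron genes to 75.7 and 147 CPM against 817 and 376 CPM. The part of such RNA in the differences between rich and low barcodes was not tested. The 12 choroid plexus genes, of which Ttr gave most UMIs and Otx2, Slc4a5, Prlr and Cldn2 gave 0, summed to 1465 and 1032 CPM against 1545 and 1167 CPM in low barcodes, with single rich barcodes between 307 and 5695 CPM and between 223 and 7291 CPM. Ttr was limited by the rule. Choroid plexus barcodes held a median of 6.60% and 6.77% ribosomal protein UMIs. Haemoglobin gave a median of 0.241% and 0.282% against 0.254% and 0.265%. The 11 microglial genes summed to 468 and 435 CPM against 479 and 384 CPM and had UMIs in 76 and 23 rich barcodes. The defining Csf1r, P2ry12, Tmem119, Trem2 and Tyrobp gave 0 UMIs there. Perivascular macrophage genes summed to 71.8 and 73.7 CPM against 79.3 and 73.5 CPM, all from Stab1, with the other 8 of 9 at 0. Scrublet marked 4 and 1 endothelial barcodes as doublets, and 0 of them were rich. The libraries share 8 barcode sequences, 1 of them in the endothelial gate.

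The 5 marker genes supplied for these cells fell into 2 kinds. Gng5, a gamma subunit of heterotrimeric G proteins, stood at 309 and 248 CPM in rich barcodes against 47.8 and 37.4 CPM in low ones, a log2 ratio of 2.69 (2.33 to 3.06) and 2.73 (2.09 to 3.35). It was detected in 58 of 91 and 16 of 27 rich barcodes. Tmsb10, a thymosin that binds actin monomers, stood at 534 and 382 CPM against 78.4 and 91.2 CPM (log2 2.77, 2.49 to 3.05, and 2.07, 1.59 to 2.52). Ctla2a, a cysteine protease inhibitor, stood at 474 and 590 CPM against 99.9 and 102 CPM (log2 2.24, 1.98 to 2.51, and 2.53, 2.13 to 2.91). These 3 genes were spread over many members, since they were found in 55.6% to 66.7% of rich barcodes and in 17.2% to 28.2% of low ones. After thinning to 1000 UMIs, Gng5 was still found in 25.3% and 33.3% of rich barcodes against 4.34% and 5.49% of low ones.

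Fabp4 and Igfbp5 did not mark the members as a whole. Fabp4, a fatty acid binding protein, had 38 UMIs in a single rich barcode of the library labelled IL34LacZ/+ and 0 in the other library. Igfbp5, which binds insulin-like growth factors, was found in 2 and 3 rich barcodes, and 66 of its 68 UMIs in the library labelled IL34LacZ/LacZ came from 1 barcode. The label of a group marked by all 5 genes therefore holds for Gng5, Tmsb10 and Ctla2a only.

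**Figure D2:**
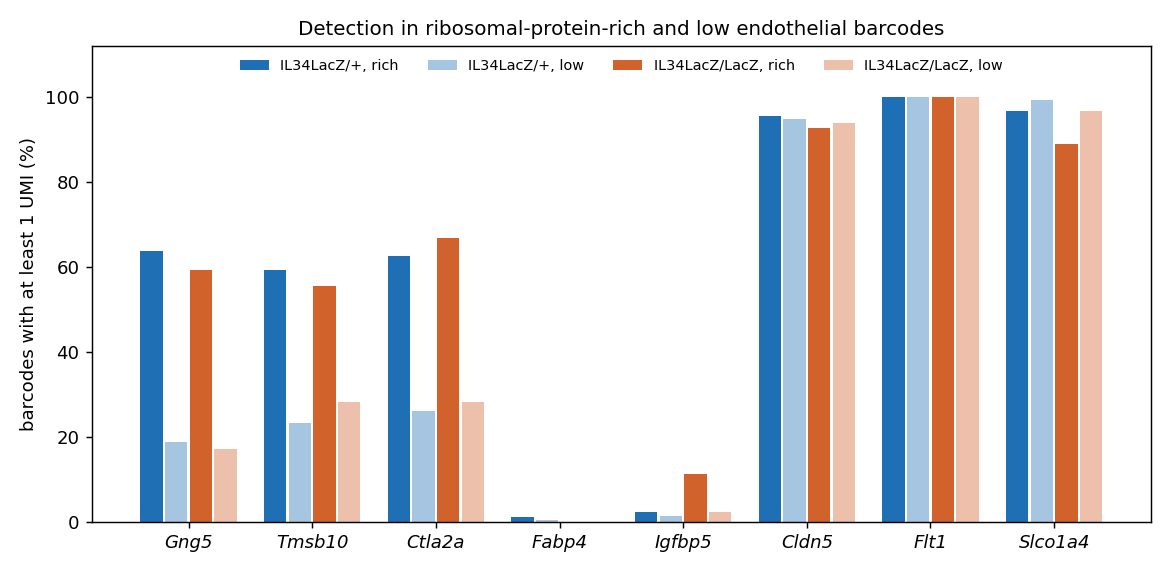
Percent of barcodes with at least 1 UMI of each gene, for rich (full colour) and low (pale) endothelial barcodes of each library. Gng5, Tmsb10 and Ctla2a were found in 55.6% to 66.7% of rich barcodes, and Fabp4 and Igfbp5 in few. Cldn5, Flt1 and Slco1a4, by which the gate chose barcodes, were found in nearly all barcodes of both kinds.

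Ribosomal protein genes were higher in the members as a block, which the rule itself sets. Of 94 such genes, 81 were measured (at least 100 UMIs over the gate and 20 CPM in rich or low barcodes of each library), and 79 were higher, meaning past 1.5-fold in both libraries with both intervals leaving out equality. Among all 6245 genes measured, 503 (8.05%) were higher and 171 (2.74%) lower, and the median log2 ratio was −0.10 and −0.12. Both subunits took part, with 48 of 49 large-subunit and 31 of 32 small-subunit genes higher. Large-subunit genes gave 1.94% and 1.59% of UMIs against 0.352% and 0.325%, and small-subunit genes 1.35% and 1.18% against 0.238% and 0.220%. Median log2 ratios of single genes were 2.49 and 2.31 for the large and 2.52 and 2.49 for the small subunit.

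Rps29, Rpl38, Rpl41 and Rpl13 were among the ribosomal protein genes of most UMIs in the gate. Rps29 stood at 1038 and 911 CPM in rich barcodes against 176 and 170 CPM in low ones, and Rpl38 at 1034 and 690 CPM against 193 and 158 CPM. The 2 measured genes that were not higher were Rpl7l1 and Rps27l, relatives of the core subunits. Rpl7l1 stood at 50.5 and 20.1 CPM against 18.8 and 22.3 CPM, and Rps27l, a target of p53, at 113 and 33.5 CPM against 10.1 and 16.4 CPM. Both rest on few UMIs in the library labelled IL34LacZ/LacZ, 3 and 5 in rich barcodes. Of the 503 higher genes, 457 were also among the 482 higher without barcodes that held at least 3 markers of another class (erythrocyte genes not used), and 79 of the 482 were ribosomal protein genes. With every barcode thinned to 1000 UMIs only 1717 genes were measured, of which 79 were higher and 25 lower.

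Start sites of the genes concerned were searched for runs of pyrimidines, which need not be terminal tracts. Each window holds 30 bases, 10 before and 20 from the RefSeq transcript start onward, on the transcribed strand of GRCm38.p6, with the longest run of C and T in capitals. The sets are the 3 supplied markers that held, and genes ranked by UMIs in the members among those with a start in the table. Ranked genes are the 5 ribosomal protein genes and 3 translation factors with most UMIs among higher genes, and the 2 such lower genes. Genes of a single chromosome were left out of this ranking. Fau stands on the translation factor list, and its product carries a small-subunit ribosomal protein.
Rpl41 (chr10:128549149-128549178, minus strand): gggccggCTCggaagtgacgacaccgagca
Rpl38 (chr11:114668570-114668599, plus strand): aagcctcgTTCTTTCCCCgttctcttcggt
Rpl13 (chr8:123102340-123102369, plus strand): TTTCgcctgattttgattggcgtttgagat
Rpl37a (chr1:72711250-72711279, plus strand): CTCgccggtctaaaaccgcgcatgcgcatt
Rpl27a (chr7:109519185-109519214, plus strand): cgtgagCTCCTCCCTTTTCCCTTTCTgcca
Tpt1 (chr14:75845246-75845275, plus strand): cgctgacgacagTTCCgggggagccgcgga
Eef1a1 (chr9:78481705-78481734, minus strand): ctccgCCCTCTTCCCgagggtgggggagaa
Fau (chr19:6057937-6057966, plus strand): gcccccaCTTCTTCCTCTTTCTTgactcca
Gng5 (chr3:146499826-146499855, plus strand): cgcggcgcgcacagCCCCggaaacttcgac
Tmsb10 (chr6:72958729-72958758, minus strand): ccacaaCCCTacaccacacatacattcaac
Ctla2a (chr13:60936606-60936635, minus strand): agctagcagtgCTCCaggaaggaaaaggcg
Fry (chr5:150259920-150259949, plus strand): CTCTgccaccatacctggctgtggctgagc
St6galnac3 (chr3:153725114-153725143, minus strand): ctcgCTCTgcgggaatgtgggctggagtgg

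Runs of at least 8 pyrimidines were found in 21 of 61 ribosomal protein windows (34.4%), 4 of 16 translation factor windows (25%) and 3021 of 27025 windows of all genes (11.2%). Among the other genes higher in rich barcodes, 27 of 333 windows held one (8.11%), and among lower genes 21 of 133 (15.8%). The motif CTTTC, which lies inside such runs, was on the transcribed strand in 21.3% of ribosomal protein windows, 2.10% of the other higher genes and 3.66% of all windows, and on the opposite strand in 4.92%, 1.80% and 3.54%. Runs of at least 8 purines, the same letters on the other strand, were in 3.28% of ribosomal protein windows, 3 of 16 translation factor windows (18.8%) and 13.1% of all windows. Pyrimidine runs were thus more frequent than purine runs in the ribosomal protein windows, and the 16 translation factor windows are too few to compare. A window with no run says only that these letters are not at the start listed first for the gene. A run may also lie before the start, as in Rpl13, and whether runs are terminal tracts was not tested.

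Translation factors were higher together with the ribosomal proteins. Of 22 genes on that list, all measured, 13 were higher and 0 lower, and their summed level was 5360 and 4207 CPM against 1423 and 1362 CPM (log2 1.91, 1.84 to 1.99, and 1.63, 1.497 to 1.76). Tpt1, the translationally controlled tumour protein, stood at 1052 and 985 CPM against 159 and 147 CPM. Eef1a1, the elongation factor that brings aminoacyl-tRNA to the ribosome, stood at 819 and 677 CPM against 170 and 165 CPM. Rack1, a scaffold on the small subunit, and Naca, which meets the nascent chain, were among the others. Mitochondrial ribosomal proteins were too sparse for most single genes (5 of 28 measured, 1 higher), and their sum had a log2 ratio of 1.70 and 1.02. Ribosome biogenesis factors moved less, at 0.93 (0.76 to 1.10) and 0.64 (0.32 to 0.95), with Npm1 and Ncl the 2 higher of 8 measured. Npm1 changed direction in the library labelled IL34LacZ/LacZ after thinning and without barcodes holding other-class markers. That filter, here and below, counts erythrocyte genes, and it left out 59 and 17 rich barcodes. The erythrocyte list marked 58 and 17 of these, and without that list 7 and 1 were left out.

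The cytoskeletal and energy genes of the fixed lists followed the same direction. Of 16 measured actin and thymosin genes 12 were higher and 0 lower, for a summed log2 ratio of 2.09 (2.03 to 2.15) and 1.54 (1.43 to 1.65). Tmsb4x, the main actin-sequestering thymosin, stood at 2257 and 1641 CPM against 310 and 344 CPM, and Actb at 1549 and 1521 CPM against 461 and 514 CPM. Nuclear-encoded subunits of the respiratory chain and ATP synthase were higher in 34 of 41 measured genes, with 0 lower, and their sum had a ratio of 2.10 and 1.83. Cox4i1, a subunit of cytochrome oxidase, stood at 314 and 281 CPM against 68.8 and 63.7 CPM. The 13 mitochondrially encoded genes gave 0 higher and 0 lower, with sums of 15112 and 27054 CPM against 12662 and 15475 CPM, a log2 ratio of 0.26 (0.22 to 0.29) and 0.81 (0.76 to 0.85). The nuclear and the mitochondrial subunits of the same complexes therefore differed in size of change, and the rule capped the mitochondrial share.

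Redox genes were also higher, and fewer of the proteasome. The antioxidant and iron list had 12 of 15 measured genes higher and a summed ratio of 1.73 and 1.66. Fth1, the ferritin heavy chain, stood at 759 and 884 CPM against 292 and 259 CPM, and Gpx1, a glutathione peroxidase, at 118.4 and 140.7 CPM against 16.7 and 24.3 CPM, with 52.4% of its UMIs in the second library from 1 barcode. The proteasome list had 8 of 21 higher and a ratio of 1.54 and 0.90, with Psma7, a core subunit, at 184 and 141 CPM against 42.5 and 41.3 CPM. The 4 measured genes of the cell cycle list were higher, but they were Tubb5, Tuba1b, H2az1 and Stmn1, which serve microtubules and chromatin outside division too, and the other 18 list members, cyclins among them, did not reach the level for measurement.

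**Figure D3:**
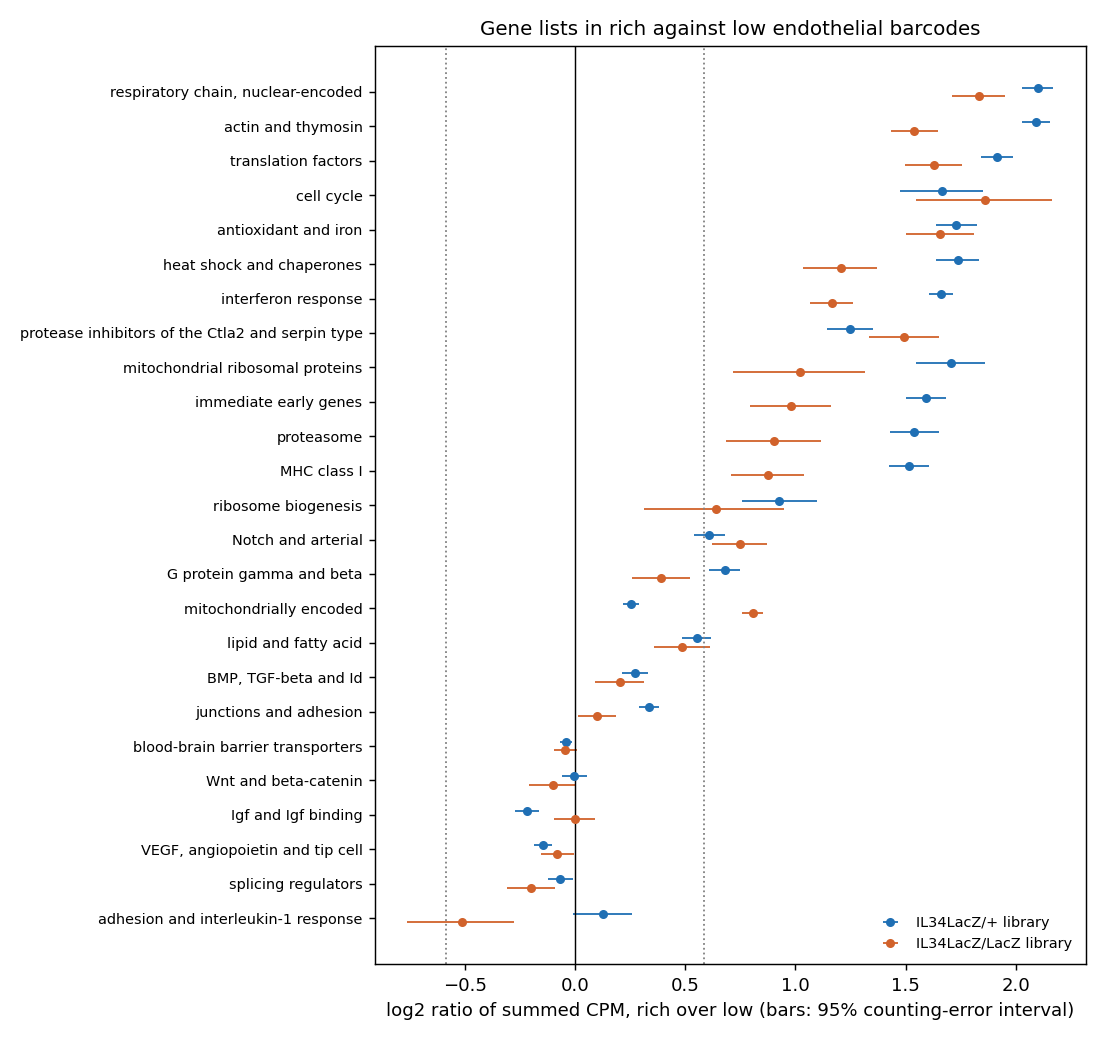
Log2 ratio of the summed CPM of each fixed gene list, rich over low endothelial barcodes, in each library, with 95% counting-error intervals and dotted lines at 1.5-fold. The respiratory, actin and translation lists lie near 2. Barrier transporters, Wnt genes and splicing regulators lie near 0, and the transporter list holds gate genes.

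A part of the interferon list was higher in the members, 8 of 21 measured genes, and the sum reached 9455 and 6727 CPM against 2993 and 3002 CPM (log2 1.66, 1.61 to 1.71, and 1.16, 1.06 to 1.26). Much of that sum came from the endothelial surface proteins Ly6c1, at 2795 and 1950 CPM against 565 and 539 CPM, and Ly6a, at 1768 and 1347 CPM against 450 and 478 CPM. Isg15, a ubiquitin-like interferon product, stood at 237 and 114 CPM against 22.4 and 34.8 CPM, and was found in 38 and 8 members. Of 10 measured MHC class I genes 3 were higher, the light chain B2m among them at 1106 and 958 CPM against 236 and 348 CPM. Median log2 ratios of the single genes were lower than these sums, at 1.05 and 0.74 for interferon and 0.79 and 0.45 for MHC class I.

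Of the immediate early genes, which respond quickly to stimuli, 6 of 14 measured were higher. The list had a summed ratio of 1.59 and 0.98 (0.80 to 1.16). Klf2, the transcription factor induced by blood flow, stood at 864 and 576 CPM against 248 and 196 CPM, and Jun at 427 and 181 CPM against 64.8 and 59.1 CPM. A single member gave 31.8% and 33.3% of the Jun UMIs, which came from 47 and 10 members. The heat shock list had 4 of 11 higher, with Hspb1, the small heat shock protein of vessels, at 578 and 335 CPM against 70.5 and 91.2 CPM.

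Barrier transport genes stood at close levels in rich and low barcodes in sum. The list holds the gate genes Slco1a4 and Abcb1a, so its sums here and below rest in part on values that the rule used. The 23 transporters gave 24947 and 22270 CPM against 25630 and 22937 CPM, a log2 ratio of −0.04 (−0.07 to −0.01) and −0.04 (−0.09 to 0.01). Slc3a2, the shared heavy chain of amino acid exchangers, was the only 1 of the 23 that was higher, at 382 and 301 CPM against 135 and 134 CPM. Slc2a1, the glucose transporter, stood at 1223 and 1052 CPM against 707 and 715 CPM but passed 1.5-fold in the library labelled IL34LacZ/+ only. Slco1c1, a thyroid hormone carrier, stood at 2748 and 2700 CPM against 3138 and 2753 CPM.

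The counts of junction and signalling genes stand beside 8.05% higher and 2.74% lower among all 6245 measured genes. Cldn5, a gate gene (log2 1.10, 1.02 to 1.18, and 0.79, 0.63 to 0.95), Esam and Icam2 were the 3 higher of 15 measured. The scaffold Tjp1 stood at 1939 and 1688 CPM against 2477 and 2349 CPM, and Ocln at 349 and 342 CPM against 393 and 419 CPM. Of 18 Wnt and beta-catenin genes only Foxq1, a forkhead factor of brain endothelium, was higher. The VEGF and angiopoietin list, which holds the gate gene Flt1, had 0 of 10 measured genes in either direction and a sum of −0.14 and −0.08. On the Notch and arterial list 2 of 13 measured genes were higher, with a sum of 0.61 (0.54 to 0.68) and 0.75 (0.62 to 0.87). The Id genes Id1, Id2 and Id3, targets of BMP signalling, were the 3 higher of 15 genes of their list, and Id1 stood at 720 and 476 CPM against 229 and 217 CPM. Id2 changed direction in the library labelled IL34LacZ/+ after thinning and in the other without barcodes holding other-class markers, and Esam changed in the latter library at a limit of 2%. Splicing regulators, as a list of other nuclear genes, had 0 of 22 called and a sum of −0.07 and −0.20.

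By vessel zone, most members held several capillary markers, as most low barcodes did. Members held a median of 9 and 8 of 12 capillary, 1 and 1 of 16 arterial and 2 and 2 of 15 venous markers. The same cut of 5 is thus easier to pass for the capillary list. A barcode could pass it in more than 1 zone, so it does not assign a zone. At least 5 of 12 capillary markers were detected in 88 of 91 (96.7%, 90.7 to 99.3) and 24 of 27 (88.9%, 70.8 to 97.6) rich barcodes, against 88.8% and 87.2% of low ones. Car4, a capillary carbonic anhydrase, and Cxcl12 were the 2 of 12 capillary genes that were higher. At least 5 arterial markers were found in 10 and 3 members (11%, 5.40 to 19.3, and 11.1%, 2.35 to 29.2) against 7.76% and 5.13% of low barcodes. For venous markers it was 13 and 3 members (14.3%, 7.83 to 23.2, and 11.1%, 2.35 to 29.2) against 9.36% and 12.8% of low barcodes. At least 5 markers of fenestrated endothelium were found in 4 and 1 members.

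The arterial and fenestrated sums rested on few barcodes. Mgp, a matrix protein of arteries, had 281 UMIs in the 3 positive members of the library labelled IL34LacZ/LacZ, and 49.1% of them came from 1 barcode. Gkn3, an arterial marker of brain, had 53 UMIs there, 94.3% in 1 barcode. Plvap, the diaphragm protein of fenestrated vessels, was found in 4 and 2 members, and 94.4% of its UMIs in the second library came from 1. The arterial list summed to a log2 ratio of 0.53 (0.40 to 0.66) and 2.63 (2.47 to 2.79). The venous list, which holds Tmsb10, went in opposite directions, at 0.76 (0.64 to 0.88) and −0.62 (−0.85 to −0.39), and Tmsb10 was its only higher gene.

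By size of ratio, members of the lists included, the leading genes were Gkn3, Plvap, Gng5, Gpx1, Uqcc2, Snrpg, Myl12a, Crip1, Pfdn5, Ctla2a, Selenom, Rack1, Selenok, Ndufb4 and Dynlrb1. Apart from Gkn3 and Plvap they were found in 26 to 58 of the 91 and in 8 to 18 of the 27 members. Myl12a, a regulatory light chain of non-muscle myosin, stood at 217 and 214 CPM against 31.5 and 38.7 CPM. Snrpg, a core protein of splicing particles, had 59 and 15 UMIs and a log2 ratio of 2.48 (1.90 to 3.06) and 2.56 (1.54 to 3.53). Among the 503 higher genes, 153 had over 10 times the CPM in barcodes of another marker class and were left out of this ranking.

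The lower genes were mostly long. Those ranked lowest were Taco1, Pde10a, Osbpl6, Wdfy2, Slc9a8, Hacd3, Dnmt3a, Slit3, Celf2, Adamts9, Agmo, Stx1a, Btrc, Kalrn and Arhgef18, and 10 of these 15 span over 100 kb. Taco1, the lowest of them, spans only 7.55 kb, Stx1a 27.6 kb and Hacd3 34.7 kb. Kalrn, a guanine nucleotide exchange factor, spans 604 kb and had 75 and 23 UMIs in rich barcodes against 800 and 496 in low ones (log2 −1.27, −1.63 to −0.93, and −1.08, −1.75 to −0.48). Dnmt3a, a DNA methyltransferase, spans 108 kb and had a ratio of −1.24 (−1.78 to −0.74) and −1.28 (−2.36 to −0.38). Slit3 had 0 UMIs in rich barcodes of the library labelled IL34LacZ/LacZ. Pde10a, a phosphodiesterase spanning 461 kb, had 15 and 2 UMIs against 259 and 123. Of the 171 lower genes only 36 were among the 100 lower at a limit of 1%, and Celf2 changed direction in the library labelled IL34LacZ/LacZ after thinning and in the other without barcodes holding other-class markers. Of 5 measured neuron genes 2 were lower. Nrxn3, a synaptic neurexin, had 6 and 3 UMIs against 342 and 237, of which single low barcodes gave 74 and 141. Its log2 ratio in the library labelled IL34LacZ/+ was 0.21 without barcodes holding other-class markers, erythrocyte genes counted. The neuron list summed to 75.7 and 147 CPM against 817 and 376 CPM. Single barcodes reached 923 and 1626 CPM of the neuron list among rich and 23489 and 13565 CPM among low ones. At least 3 neuron markers with 2 or more UMIs each were found in 12 and 5 low barcodes and in 0 rich ones, and the part of neuronal RNA in the lower genes was not tested.

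The ratios followed the genomic span of the genes. Ribosomal protein and mitochondrial genes left out, the median log2 ratio was 1.54 and 1.13 for 117 genes under 3 kb, 0.27 and 0.13 for 1659 genes of 10 to 30 kb, and −0.64 and −0.54 for 267 genes of at least 300 kb. Higher genes spanned a median of 8.17 kb, lower genes 178 kb and the rest 44.4 kb. In genes under 3 kb 47.9% were higher and 1.71% lower, and in those of at least 300 kb 0 were higher and 18.7% lower. Spearman's rho between span and ratio over 6145 genes was −0.591 and −0.391, a description across genes that share the same cells. In single barcodes, genes of at least 100 kb gave a median of 32.7% and 32.8% of UMIs in rich against 42.6% and 42.6% in low barcodes. Genes under 10 kb gave 13.4% and 11.3% against 6.83% and 6.28%. Intronic and exonic UMIs are not told apart in these files, and the part of span or of intronic reads in any list difference was not tested.

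**Figure D4:**
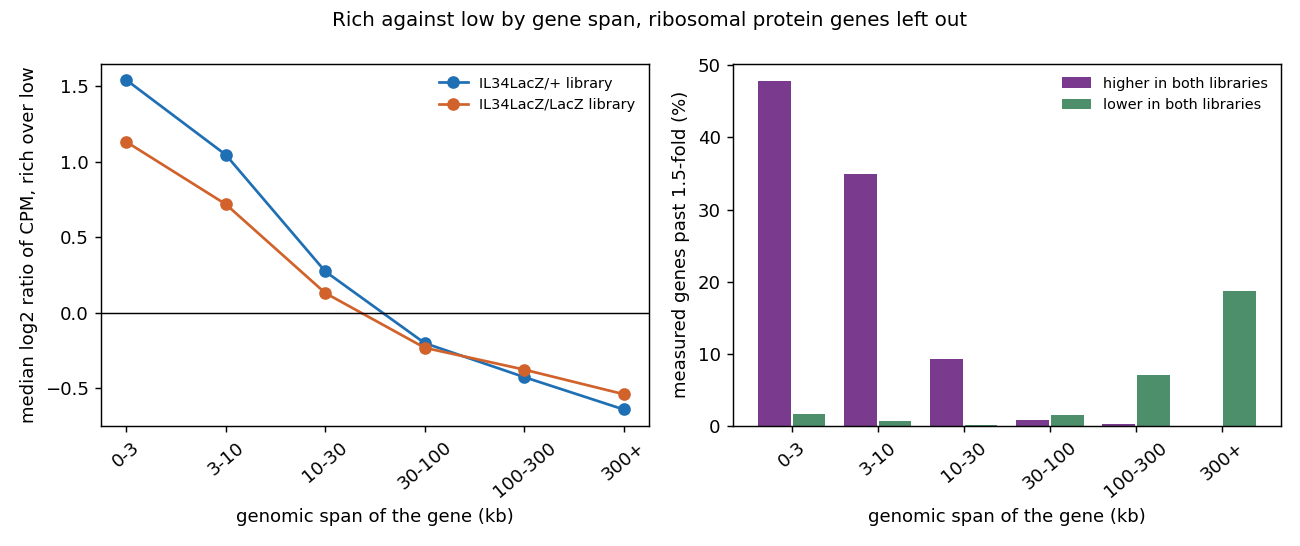
Left, median log2 ratio of CPM, rich over low, by genomic span of the gene (kb) in each library; right, percent of measured genes higher or lower in both libraries. The median falls from above 1 in genes under 3 kb to below −0.5 in genes of at least 300 kb.

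Within the gate these quantities varied by degree with the ribosomal protein share. Over all 529 and 300 endothelial barcodes, Spearman's rho of that share was 0.801 and 0.695 with the share of short genes, −0.786 and −0.633 with that of long genes, 0.699 and 0.577 with translation factors and 0.674 and 0.567 with actin and thymosin genes. Among the 91 and 27 members alone it was 0.734 and 0.199 with short genes, −0.629 and −0.210 with long genes, 0.768 and 0.696 with translation factors, 0.733 and 0.421 with actin and thymosin genes and −0.301 and −0.315 with barrier transporters. Over all endothelial barcodes it was 0.038 and −0.019 with barrier transporters, −0.012 and 0.013 with UMIs per barcode, 0.022 and −0.079 with Ttr and 0.375 and 0.328 with the mitochondrial share. All these are shares of the same UMIs, so they are not independent of one another.

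Translation factors and Ctla2a were higher at each step of the ribosomal protein share, while Cldn5 was not in both libraries. Translation factors summed to 1024 and 1066 CPM below 0.5%, to 1814 and 1759 CPM from 0.5 to 1.5%, to 3612 and 3133 CPM from 1.5 to 3%, and to 8945 and 8028 CPM above that. Ctla2a stood at 74.3 and 81.2 CPM, 125 and 131 CPM, 352 and 369 CPM, and 722 and 1374 CPM over the same steps. Cldn5 stood at 1375 and 1201 CPM, 2289 and 1815 CPM, 3459 and 2558 CPM, and 4907 and 2412 CPM. Barrier transporters stood at 25028 and 23238 CPM in the lowest step and at 21056 and 22253 CPM in the highest, which holds 29 and 5 barcodes. The single barcodes with Fabp4 and with 66 Igfbp5 UMIs both lie in that highest step.

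Between the libraries, members differed in mitochondrially encoded genes. Ratios between libraries have the IL34LacZ/LacZ label in the numerator and have no replicate. Among 4367 genes measured in rich barcodes (at least 30 UMIs and 20 CPM in a library), 222 (5.08%) were higher and 267 (6.11%) lower, past 1.5-fold with the interval leaving out equality. In low barcodes it was 250 (3.57%) and 438 (6.25%) of 7006. Of 12 measured mitochondrially encoded genes 10 were higher in rich barcodes, and the sum had a log2 ratio of 0.84 (0.78 to 0.90) against 0.29 (0.26 to 0.31) in low barcodes. mt-Co3, a cytochrome oxidase subunit, stood at 2395 CPM in the library labelled IL34LacZ/+ and 4697 CPM in the other. The mitochondrial share of a member, which is made of these genes and others of the mitochondrial genome, had medians of 2.33% and 3.56%, and the part of RNA quality was not tested.

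Ribosomal protein genes were 0 higher and 11 lower of 80 measured, with a summed ratio of −0.25 (−0.30 to −0.20) against −0.11 (−0.15 to −0.07) in low barcodes, values that the rule used. The immediate early list was lower by −0.72 (−0.91 to −0.54) in rich and −0.11 (−0.21 to −0.02) in low barcodes. Single members reached 28224 and 12078 CPM of this list. In members from 1.5 to 3% ribosomal protein UMIs it stood at 2214 and 2000 CPM. At 3% or more, with 29 and 5 barcodes, it stood at 5375 and 1862 CPM. The part of single barcodes and of unequal steps in the list ratio was not tested. Fos gave 48 UMIs (93.2 CPM) and 2 UMIs (13.4 CPM), a log2 ratio of −2.80 (−5.88 to −0.87), and 1 of its 5 positive members in the library labelled IL34LacZ/+ gave 37 of the 48 UMIs. On the interferon list 0 were higher and 6 lower of 22 measured, Isg15 at −1.06 (−1.88 to −0.32) and Ifitm3 at −0.74 (−1.12 to −0.37) among them. Of the 23 transporters 0 were higher and 1 lower, the lactate carrier Slc16a1 at −1.21 (−1.70 to −0.75), and the sum was −0.16 in rich and −0.16 in low barcodes.

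Genes with the highest ratios were Col5a2, Ldb2, Asb4, Atp2b4, Tanc2, Glce, Stk39, Enox2, Rbbp8 and Vps35l, and several rested on 1 barcode of the 27. Col5a2, a fibrillar collagen, had 10 and 21 UMIs, 95.2% of the latter in 1 barcode. Ldb2, a LIM-domain binding factor, had 44 and 70 UMIs, found in 4 members of the second library (log2 2.46, 1.89 to 3.04). Among the lowest were Tec, Tmx1, Gopc, Gdpd5, Rtraf, U2af2, Eloc, Isyna1 and Pcgf5, with 1 to 3 UMIs each in the library labelled IL34LacZ/LacZ. Isyna1, an inositol synthase, had 58 UMIs in 41 members and 3 UMIs in 3 members (log2 −2.49, −4.80 to −0.87), and in low barcodes its ratio was 0.13 (−0.25 to 0.51). After thinning, Atp2b4, Vps35l, Eloc and Isyna1 changed direction, as did Asb4 and Tanc2 without barcodes holding other-class markers. Igfbp5 and Mgp had ratios of 6.29 (4.68 to 8.60) and 3.73 (3.36 to 4.12) that the few barcodes named above set.

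The ribosomal protein share differed widely between the cell types of these libraries. At least 1.5% was reached by 354 of 355 and 265 of 265 choroid plexus barcodes, 180 of 251 and 211 of 239 oligodendrocyte barcodes and 57 of 75 and 54 of 67 fibroblast barcodes. Astrocyte barcodes resembled endothelial ones, with 46 of 247 (18.6%, 14.0 to 24.0) and 13 of 115 (11.3%, 6.16 to 18.6), and pericyte barcodes had 4 of 28 and 2 of 44. The endothelial and the astrocyte intervals overlap in each library.

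**Figure D5:**
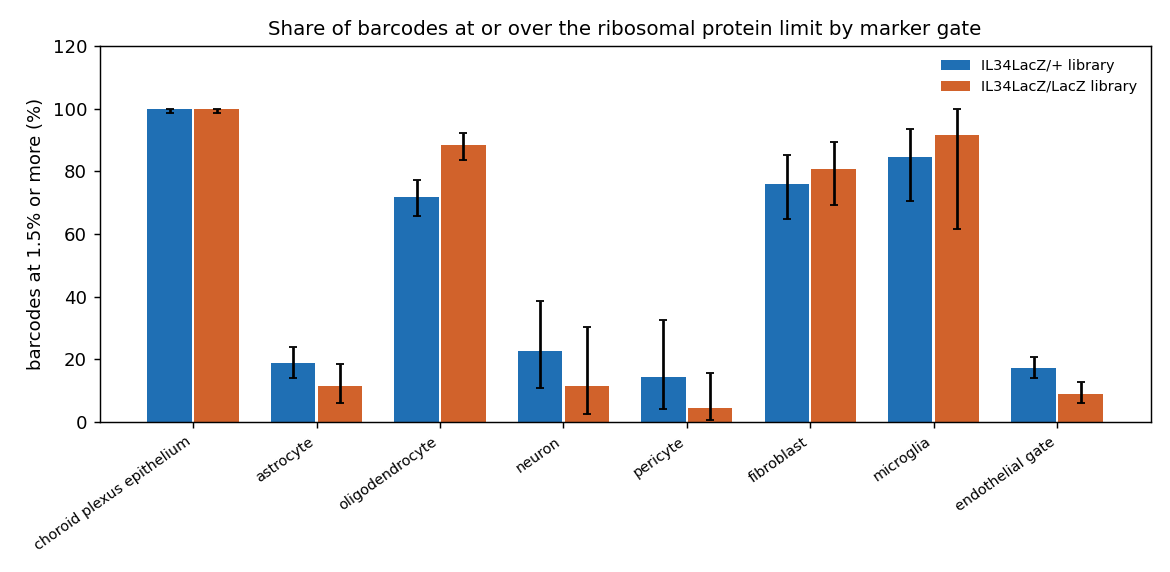
Percent of barcodes with at least 1.5% ribosomal protein UMIs in each marker gate and library, with 95% Clopper-Pearson intervals. Endothelial, astrocyte, pericyte and neuron barcodes lie between 4.55% and 22.5%, and the other gates drawn at 71.7% or more, with the smooth muscle gate of 1 barcode not drawn.

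Divided at the same 1.5%, astrocyte barcodes showed the same gene groups. Their summed log2 ratio was 1.40 (1.31 to 1.49) and 1.25 for translation factors, 1.83 and 1.17 for actin and thymosin genes, 1.70 and 1.62 for nuclear-encoded respiratory genes and 1.89 and 1.33 for Gng5. In oligodendrocyte barcodes translation factors had 1.89 and 2.0 and respiratory genes 1.93 and 1.92, while mitochondrially encoded genes were lower, at −0.83 and −0.78. Genes under 10 kb had 0.95 and 0.88 in astrocyte barcodes. The same lists were thus higher in sum outside endothelium too. Ctla2a had 0 UMIs in the rich astrocyte barcodes of the library labelled IL34LacZ/+, and its difference between rich and low barcodes was measured in endothelium only.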

How the data were processed

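Sorted cells of 2 libraries, 1 per genotype, were profiled with droplet 3-prime RNA sequencing. The authors deposited filtered matrices of whole-number UMI counts per gene and barcode, not normalized. Per the file headers, Cell Ranger 7.1.0 made them, and the submitters' processing notes name the builds mm10 and GRCm38.p6. Which annotation release was used, and whether free RNA was removed, is not stated in these sources. The smallest deposited barcode total was 500 UMIs.

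From these counts, barcodes were selected by the rule stated in the opening, and UMIs were summed over rich or low barcodes of a library and divided by their total to give CPM. With 1 library per genotype no test was run. Intervals are exact Clopper-Pearson for shares, Newcombe for the difference of shares, Poisson for levels and conditional binomial for log2 ratios. All are at 95% and cover counting error only. Where a gene had 0 UMIs on one side, its ratio was set with a floor of 3 counts, summed over the barcodes of that side. Past filters the libraries held 16291302 and 14106713 UMIs. Between libraries a gene counted as measured from 30 UMIs over both libraries' barcodes of a class and 20 CPM in either library.

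Named genes were all members of the lists, the 15 highest and 15 lowest ratios between rich and low barcodes (the ratio closer to 0 of the 2 libraries), and the 10 highest and 10 lowest between libraries. Ribosomal protein, gate, mitochondrial, haemoglobin and sex-linked genes, unnamed models and genes over 10 times higher in another marker class were left out of these rankings. Some genes that these rules name are not reported here. Fry and St6galnac3 were shown for their number of UMIs and were chosen after their values were seen. The members and the lists were chosen with earlier results of these data known. Doublets were called with Scrublet in scanpy 1.11.5 and were not removed, and a caller that marks 1.32% and 0.681% of barcodes may miss many. Marker gates of other cell types required from 0.5% to 10% of UMIs in the markers of that type. Gene spans were taken from the GENCODE M21 annotation and transcript starts from RefSeq tables of GRCm38.p6. Python 3.11.15, numpy 2.4.6, scipy 1.17.1 and pandas 2.3.3 were used. The ratios and intervals were tested on simulated counts. Alternatives changed the ribosomal protein limit, the filters on barcodes, depth, doublets, scaling and the filter on low genes. Others, chosen after seeing the data, left out barcodes at 5% or more ribosomal protein UMIs, arterial or fenestrated barcodes, shared barcode sequences, barcodes with markers of another class other than erythrocyte genes, or the highest barcode of each gene.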

Additional observations from a re-analysis of the deposited data

Results flagged for a closer look

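Several list sums went in opposite directions in 2 groups under the same contrast, and each difference was not tested. From low to rich barcodes, the venous list had a summed log2 ratio of 0.76 in the library labelled IL34LacZ/+ and −0.62 in the library labelled IL34LacZ/LacZ, and the astrocyte list −0.53 and 0.81. Between the libraries (IL34LacZ/LacZ over IL34LacZ/+), the arterial list had 1.47 in rich and −0.63 in low barcodes, where 3 members held all 281 Mgp UMIs of the library labelled IL34LacZ/LacZ. The venous list had −0.42 in rich and 0.95 in low barcodes.

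Actin and thymosin genes had −0.34 in rich and 0.21 in low barcodes, heat shock genes −0.27 and 0.26, and MHC class I genes −0.38 and 0.26. The Igf list had 0.13 in rich and −0.0889 in low barcodes, with 66 of the 68 Igfbp5 UMIs of the second library in 1 rich barcode. The G protein list had −0.21 and 0.0817.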

How the results depend on the processing

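No paired analysis was possible because each genotype has 1 library. Under every alternative run that moves barcodes in or out of the gate the share of rich barcodes was lower in the library labelled IL34LacZ/LacZ, with differences from −9.77 to −7.25 percentage points. From 12 to 14 lists were higher in both libraries in sum and 0 lower. A limit of 1% gave shares of 30.4% and 20.7% and 100 lower genes, and a venous sum of 0.23 in the library labelled IL34LacZ/LacZ. A limit of 2% gave 12.3% and 3.33%, with Esam at −0.10 and the fenestrated sum at −2.33 in that library. With at most 10% mitochondrial UMIs its astrocyte sum was −0.26. With gate genes at 1% or more the fenestrated sum of the library labelled IL34LacZ/+ was −0.30 and Col5a2 between libraries −1.48.

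Thinned to 1000 UMIs, 79 genes were higher and 25 lower between rich and low barcodes and 34 and 35 between libraries, where fewer genes could be measured. Then Id2 was at −1.20 in the library labelled IL34LacZ/+. In the other library Dynlrb1 was at −0.20, Npm1 at −0.34, Celf2 at 0.12 and the venous sum at 0.0596. Between libraries Atp2b4 was at −0.85, Vps35l at −0.27, Eloc at 0.41 and Isyna1 at 0.41.

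Without barcodes holding 3 or more markers of another class (erythrocyte genes counted, 32 and 10 rich barcodes left), 199 genes were higher and 72 lower, and 165 lower between libraries. In the library labelled IL34LacZ/+ Gkn3 was then at −0.79, Mgp at −2.79, Celf2 at 0.10, Nrxn3 at 0.21 and the fenestrated sum at −0.31. In the other library Id2 and Npm1 were both at −0.34, the arterial sum at −0.86 and the astrocyte sum at −0.29. Between libraries Asb4 was at −0.60 and Tanc2 at −0.92. With no filter 402 genes were higher between libraries.

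Among alternatives chosen after seeing the data, leaving out barcodes at 5% or more ribosomal protein UMIs gave 89 lower genes. Leaving out arterial or fenestrated barcodes gave 113 lower genes, fenestrated sums of −0.10 and −0.23, and in the library labelled IL34LacZ/LacZ an arterial sum of −0.10 and Id2 at −0.24. Leaving out the highest rich barcode of each gene, which lowers rich values by construction, gave 453 lower genes and, between libraries, 92 higher and 467 lower. Plvap was then at −1.40 and the fenestrated sum at −1.43 in the library labelled IL34LacZ/LacZ, and between libraries Col5a2 at −0.92 and Atp2b4 at −0.10. The cause of each reversal was not tested. For 108 results an alternative gave no value because a group held 0 UMIs. Depth limits the 27 members of the library labelled IL34LacZ/LacZ, where 1 UMI stands for 6.70 CPM.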
